A study of Mus musculus and Rattus norvegicus with 30 samples.

Results

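The hyaluronan link proteins and lecticans are 10 genes taken up here as a group: the link proteins Hapln1, Hapln2, Hapln3 and Hapln4, the lecticans Vcan (versican), Acan (aggrecan), Ncan (neurocan) and Bcan (brevican), the glycoprotein Tnr (tenascin-R) and the enzyme Has2 (hyaluronan synthase 2). They were found by symbol among 54315 features listed for mouse and 39281 listed for rat, and were followed in the dorsal root ganglion (DRG), which holds the cell bodies of the sensory neurons of the body wall and limbs. The group was taken up because Hapln1 was far lower in injured than in sham rat ganglia, so the rat values of the group are given as a description without a test. All 10 genes had counts and passed the filter on low counts in mouse, while in rat 7 did and Hapln4, Ncan and Tnr were listed at 0 in every library. Mice were adults of the inbred strains BALB/c and B10.D2, and each library held the L3 and L4 ganglia of 1 animal, taken 28 days after spared nerve injury (SNI) or sham surgery. In SNI the tibial part of the sciatic nerve is left intact while its peroneal and sural parts are severed, so the ganglia hold injured and uninjured neurons. There were 6 BALB/c sham libraries (3 male, 3 female), 4 BALB/c SNI (2 and 2), 5 B10.D2 sham (3 and 2) and 5 B10.D2 SNI (2 and 3). Rats were male Wistar, and each of the 4 sham and 4 spinal nerve transection (SNT) libraries pooled the L5 ganglia of 3 animals taken 21 days after surgery.

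Hyaluronan is a long unbranched sugar polymer that hyaluronan synthases spin out at the cell surface. Lecticans are chondroitin sulphate proteoglycans whose amino-terminal domain grips hyaluronan, link proteins clamp that grip, and tenascin-R, a trimer, ties the carboxy-terminal domains of lecticans together. In the central nervous system this lattice forms the perineuronal net around parvalbumin-containing neurons and the matrix at nodes of Ranvier, and Hapln2 and Hapln4 are best known from those sites. Hapln1 and aggrecan were first studied in cartilage, versican is widespread in connective tissue, and neurocan and brevican are regarded as proteins of nervous tissue. The 4 link protein genes lie beside the 4 lectican genes in pairs.

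Gene positions are on mm10 (GENCODE M21). Hapln1 at chr13:89539796-89611652 and Vcan at chr13:89655312-89742509 run toward each other with 43659 bases between them. Hapln3 at chr7:79115102-79131018 and Acan at chr7:79053483-79115099 also converge, with only 2 bases between the gene models. Hapln4 at chr8:70083457-70090862 and Ncan at chr8:70093085-70120873 converge with 2222 bases between them. Hapln2 at chr3:88021750-88027583 and Bcan at chr3:87987531-88000230 lie on the same strand, 21519 bases apart with Hapln2 upstream. Tnr at chr1:159523769-159931729 and Has2 at chr15:56665627-56694539 stand alone. Since reads near converging ends can be assigned to either partner where the strand setting of the counting is not given in the sources used here, the Hapln3 and Acan counts are uncertain to that extent.

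The 250 bases upstream of the RefSeq start were read for 8 of the 10 genes (GRCm38.p6). They are printed for Hapln1, for which the group was taken up, for its neighbour Vcan, and for Bcan, which had the highest level per length, 5' to 3' on the gene's strand, with matches to the searched motifs on either strand in capitals. The Hapln1 window, chr13:89540386-89540635 on the plus strand, falls inside the GENCODE gene model, which starts further upstream. The Vcan window is chr13:89742513-89742762 and the Bcan window chr3:88000357-88000606, both on the minus strand.
Hapln1: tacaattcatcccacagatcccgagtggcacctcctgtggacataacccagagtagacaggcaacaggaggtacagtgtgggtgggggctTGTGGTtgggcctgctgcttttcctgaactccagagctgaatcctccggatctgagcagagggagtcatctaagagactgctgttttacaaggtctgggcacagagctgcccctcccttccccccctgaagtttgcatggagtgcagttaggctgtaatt
Vcan: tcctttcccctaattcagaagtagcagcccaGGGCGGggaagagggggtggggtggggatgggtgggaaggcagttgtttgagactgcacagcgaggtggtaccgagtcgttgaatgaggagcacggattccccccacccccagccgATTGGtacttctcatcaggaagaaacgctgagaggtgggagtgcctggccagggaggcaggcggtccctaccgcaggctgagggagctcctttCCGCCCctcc
Bcan: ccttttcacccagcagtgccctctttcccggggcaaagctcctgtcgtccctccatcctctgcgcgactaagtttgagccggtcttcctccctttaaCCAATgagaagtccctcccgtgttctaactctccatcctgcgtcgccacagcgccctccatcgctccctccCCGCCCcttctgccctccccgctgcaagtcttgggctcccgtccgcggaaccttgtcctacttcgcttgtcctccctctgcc
In capitals, Hapln1 has 1 match to the Runx core TGTGGT, which 14% of 32851 promoters hold. Bcan has a CCAAT box (CCAAT, 33.8% of promoters) and a GC box (GGGCGG, 32.7%), and Vcan has a CCAAT box and 2 GC boxes. Neither the AP-1 motif TGANTCA (6.75% of promoters) nor the CRE TGACGTCA (1.55%) was present in any of the 8 windows. The TATA box TATAAA (12%) was present in Hapln3 and Ncan. These matches are a description of the letters and not of binding.

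Mouse libraries held 30.0 to 41.9 M counts and rat libraries 12 to 17.9 M, so that 3 counts, the floor used here, stand for 0.0716 to 0.100 CPM (counts scaled to library size) in mouse and 0.168 to 0.251 CPM in rat. The 7 markers of injured sensory neurons (Atf3, Sprr1a and others) were all called higher after SNI in both strains. Sensory neuron markers summed to between 6049 and 6490 CPM as group means in mouse. Of the central glia markers, Mog, Olig2 and Opalin did not exceed 0.151 CPM in any mouse library, while Aqp4 reached 15.9 ± 1.27 CPM (SD, n = 5) in B10.D2 sham. In rat, abundant neuronal and glial genes such as Tubb3, Uchl1 and Glul were also listed at 0, so the rows of Hapln4, Ncan and Tnr at 0 say nothing about those genes. On the first principal component of the rat libraries (71.5% of the variance), sham 4 and SNT 1 lay between the remaining sham and SNT libraries. In bulk ganglia, fewer cells of a type and less RNA per cell cannot be told apart.

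Levels of different genes were compared as CPM per kb of exon, and their order depends on the exon length taken. In CPM, for example, the sham means of Hapln4 (27.7 in BALB/c and 19.8 in B10.D2) were below those of Tnr (30.6 and 31.8). The levels that follow are per kb. Brevican was highest in all 4 mouse groups, at 21.7 ± 2.88 CPM per kb in BALB/c sham (SD, n = 6) and 20.2 ± 2.21 in B10.D2 sham (SD, n = 5), and every library of a group was above every library of the next gene. Hapln4 came next in sham ganglia, at 7.05 ± 0.521 CPM per kb in BALB/c and 5.05 ± 1.2 in B10.D2. In BALB/c sham ganglia Ncan (4.0 ± 0.640) followed with no overlap, and then Tnr (2.38 ± 0.332), Hapln1 (1.64 ± 0.341) and Vcan (1.53 ± 0.135), whose libraries overlapped from neighbour to neighbour. In B10.D2 sham ganglia the order after Hapln4 was Hapln1 (3.09 ± 0.427 CPM per kb), Tnr (2.47 ± 0.310), Ncan (2.12 ± 0.240) and Vcan (1.68 ± 0.102), and neighbours overlapped down to Ncan. Hapln3 stood at 0.974 ± 0.144 in BALB/c and 1.41 ± 0.164 CPM per kb in B10.D2, and Has2 at 0.510 ± 0.139 and 0.417 ± 0.116. Hapln2 and Acan were lowest, with group means between 0.0334 and 0.168 CPM per kb over all 4 groups. Brevican made up 79.5% ± 1.41 of the summed lectican level in BALB/c sham (SD, n = 6) and 83.7% ± 0.712 in B10.D2 sham (SD, n = 5).

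**Figure D1:**
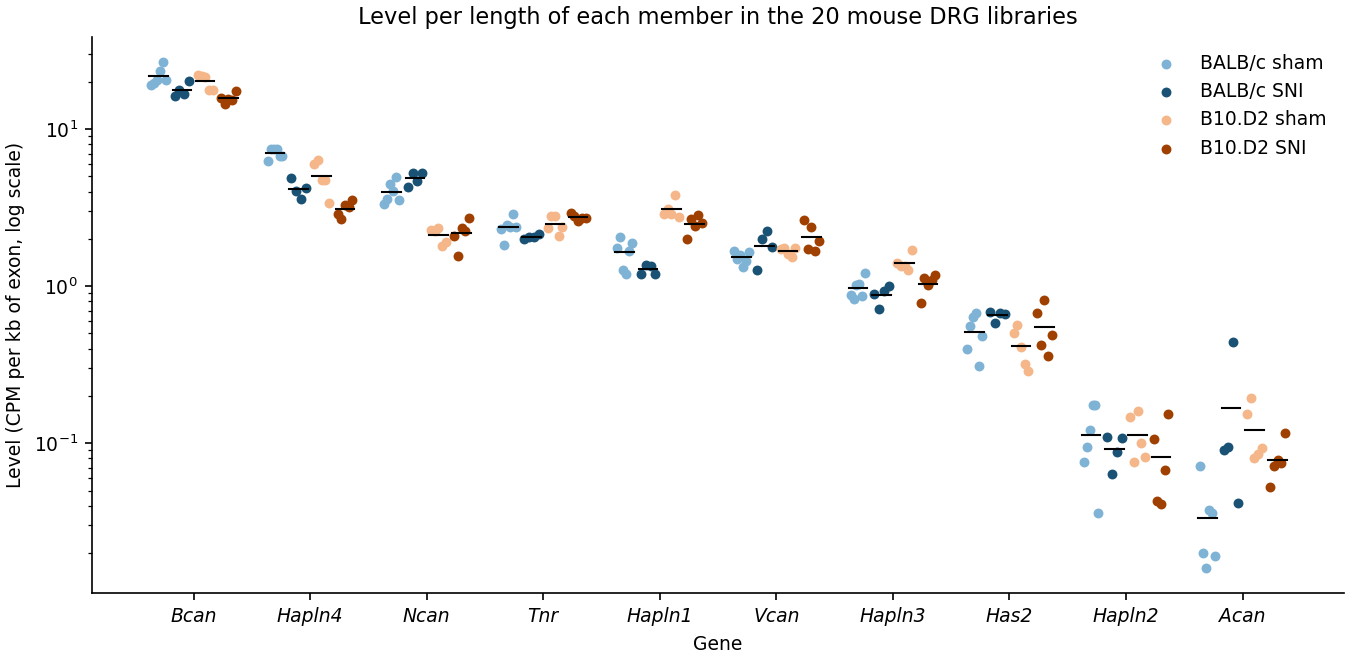
Level per length (CPM per kb of exon, log axis) of each gene in the 20 mouse libraries, with 1 point per library, colours for the 4 groups and black bars for group means. Bcan sits near 20 CPM per kb in sham ganglia, well above Hapln4, and Hapln2 and Acan lie lowest.

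The link protein genes differed between strains in make-up more than in sum. Their summed level was 9.78 ± 0.488 CPM per kb in BALB/c sham (SD, n = 6) and 9.66 ± 1.19 in B10.D2 sham (SD, n = 5). Hapln4 took 72.1% ± 3.04 of that sum in BALB/c but 51.7% ± 6.68 in B10.D2, and the libraries did not overlap (68.3 to 75.8% against 42.7 to 58.4%). Hapln1 took 16.8% ± 3.46 in BALB/c and 32.2% ± 4.51 in B10.D2, again without overlap. After SNI the sum was 6.45 ± 0.506 CPM per kb in BALB/c (SD, n = 4) and 6.73 ± 0.636 in B10.D2 (SD, n = 5), and in both strains every SNI library was below every sham library. The share of Hapln4 was then 64.8% ± 3.54 in BALB/c against 46.4% ± 3.73 in B10.D2. The summed lectican level was 27.3 ± 3.34 CPM per kb in BALB/c sham against 24.6 ± 2.22 after SNI, and 24.1 ± 2.50 against 20.1 ± 1.62 in B10.D2, with overlap in both strains. These sums are descriptions, with no test.

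**Figure D2:**
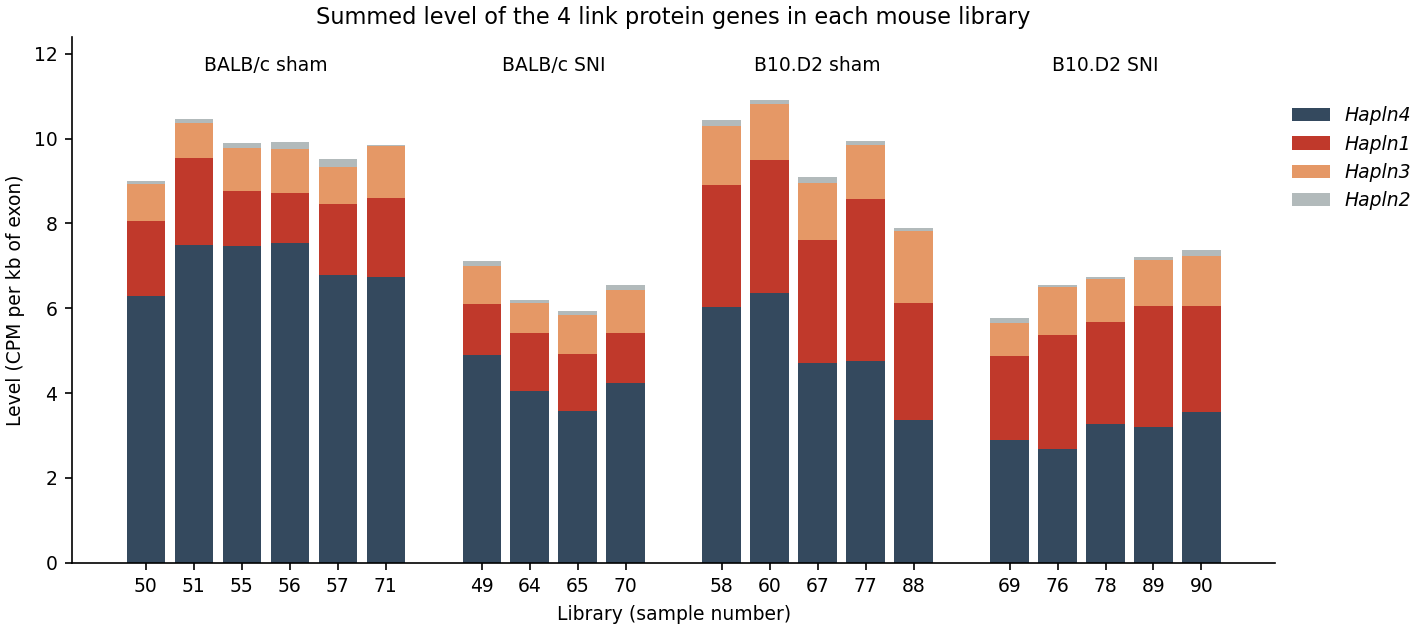
Summed level of the 4 link protein genes (CPM per kb of exon) in each mouse library, stacked by gene and grouped by strain and surgery, with sample numbers on the x axis. Hapln4 is the largest block in BALB/c, Hapln1 is a larger block in B10.D2, and every SNI stack is lower than every sham stack of its strain.

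The first question was how the group changed after nerve injury in each strain. After SNI, 2 of 10 members were called in BALB/c (Hapln4 lower, Acan higher), against 9.69% of all 24685 features called in either direction, and 2 of 10 in B10.D2 (Hapln4 and Bcan, both lower), against 4.58%. A feature is called at an adjusted p under 0.05. Without the multiple-testing correction 6 members in BALB/c and 5 in B10.D2 had p under 0.05, as did 5739 and 4149 of all 24685 features. Groups did not overlap for 1 member in BALB/c (background 8.61%) and 2 in B10.D2 (background 5.18%).

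Hapln4, a link protein known from perineuronal nets and the synapses of large axon terminals, was lower after injury in both strains. In BALB/c sham libraries it stood at 24.7, 29.4, 29.4, 29.5, 26.7 and 26.4 CPM, and in SNI libraries at 19.2, 15.9, 14.1 and 16.6 CPM. All 4 SNI libraries were below all 6 sham libraries, and the log2 fold change was −0.76 (SE 0.13, adjusted p = 0.000461). B10.D2 sham libraries held 23.7, 25.0, 18.5, 18.7 and 13.2 CPM, and SNI libraries 11.4, 10.5, 12.8, 12.5 and 13.9 CPM. Only sham 88, at 13.2 CPM, overlapped the SNI libraries, and Hapln4 fell by 37.3% (log2 fold change −0.67, SE 0.13, adjusted p = 0.00267). The call held when any 1 library was left out, in both strains.

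Brevican, a small lectican found at nodes and around synapses, was also lower in B10.D2. In BALB/c it was 88.2 ± 11.7 CPM in sham (77.5 to 109, median 84.0, n = 6) and 66.2, 72.2, 68.5 and 81.9 CPM in the SNI libraries. SNI 70, the highest of these, overlapped the sham range, and the change of −18.1% missed the threshold (log2 fold change −0.29, SE 0.09, adjusted p = 0.0513). In B10.D2 the sham libraries held 89.8, 88.8, 86.8, 72.4 and 71.9 CPM and the SNI libraries 64.2, 58.9, 63.5, 62.5 and 70.9 CPM. Every SNI library was below every sham library, and Bcan fell by 22.1% (log2 fold change −0.36, SE 0.09, adjusted p = 0.0230). That call was lost, with adjusted p of 0.0505 to 0.0682, when sham 58, 60 or 67 or SNI 69, 76 or 78 was left out.

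Hapln1, the link protein of cartilage and also of perineuronal nets, was 9.68 ± 2.01 CPM in BALB/c sham (SD, n = 6) and 7.10, 8.07, 7.91 and 7.09 CPM in the SNI libraries. The groups overlapped, since sham 55 and 56 held 7.53 and 7.03 CPM, and the change was not called (log2 fold change −0.35, SE 0.14, adjusted p = 0.123). In B10.D2 it was 16.9, 18.4, 17.1, 22.5 and 16.3 CPM in sham and 11.7, 15.9, 14.3, 16.9 and 14.8 CPM after SNI, with overlap from SNI 89 (log2 fold change −0.30, SE 0.13, adjusted p = 0.230). Hapln3, a widely expressed link protein, was 3.42 ± 0.505 CPM in BALB/c sham (SD, n = 6) and 3.11 ± 0.430 after SNI (SD, n = 4; log2 fold change −0.14, SE 0.13, adjusted p = 0.560). In B10.D2 its sham libraries held 4.91, 4.70, 4.70, 4.47 and 5.94 CPM and its SNI libraries 2.74, 3.96, 3.56, 3.83 and 4.12 CPM. The 5 SNI libraries were all below the 5 sham libraries, but the change was just short of a call (log2 fold change −0.42, SE 0.12, adjusted p = 0.0573).

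Hapln2, the link protein of central nodes of Ranvier, was counted 3 to 15 times per mouse library, near the floor, and its change could not be resolved at this depth (log2 fold change −0.30, SE 0.41 in BALB/c and −0.50, SE 0.41 in B10.D2). Aggrecan, the large lectican of cartilage and perineuronal nets, was also scarce. BALB/c sham libraries held 0.536, 0.150, 0.121, 0.279, 0.269 and 0.143 CPM (5 to 18 counts), and SNI libraries 0.681, 0.702, 3.32 and 0.312 CPM. The log2 fold change was 2.34 (SE 0.54, adjusted p = 0.00724), but SNI 65 carried 128 counts against 28 or fewer in the other BALB/c libraries. Without SNI 65 it was 1.16 (SE 0.41, adjusted p = 0.0990), and with BALB/c fitted alone 2.18 (SE 0.60, adjusted p = 0.0510). In SNI 65 the cartilage collagen Col2a1 stood at 6.12 CPM, against 1.34 to 2.88 CPM in the other 19 mouse libraries, and the osteoclast protease Ctsk at 22.6 CPM, against 10.8 to 19.0 CPM. Of the other cartilage genes Matn1 had no count there, and Col9a1, Matn3, Cnmd, Comp and Sox9 lay within the range of the other libraries. Of the other bone genes Acp5, Mmp9, Mmp13 and Bglap lay within that range, and Ibsp, at 2.02 CPM, lay below it (2.04 to 6.78 CPM). The part of cartilage or bone in this value was not tested. B10.D2 libraries held 0.905 ± 0.373 CPM of Acan in sham and 0.588 ± 0.174 CPM after SNI (SD, n = 5 each; log2 fold change −0.63, SE 0.50, adjusted p = 0.594).

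Versican was 22.1 ± 1.96 CPM in BALB/c sham (SD, n = 6) and 18.3, 28.7, 32.3 and 25.6 CPM after SNI, on both sides of the sham range (log2 fold change 0.24, SE 0.13, adjusted p = 0.276). In B10.D2 it was 24.2 ± 1.47 CPM in sham and 38.3, 24.8, 34.3, 24.2 and 28 CPM after SNI (log2 fold change 0.28, SE 0.13, adjusted p = 0.275). The SD was 5.95 and 6.17 CPM after SNI against 1.96 and 1.47 CPM in sham, so the SNI libraries of both strains were the more spread out. Neurocan was 28.7 ± 4.61 CPM in BALB/c sham (SD, n = 6) and 35.1 ± 3.59 after SNI (SD, n = 4; log2 fold change 0.29, SE 0.13, adjusted p = 0.162), and 15.3 ± 1.73 and 15.8 ± 3.02 CPM in B10.D2 (SD, n = 5 each; log2 fold change 0.04, SE 0.13, adjusted p = 0.926). Tenascin-R was 30.6 ± 4.27 CPM in BALB/c sham and 25.8, 26.6, 26.7 and 27.5 CPM after SNI (log2 fold change −0.20, SE 0.09, adjusted p = 0.185). In B10.D2 it was 31.8 ± 4.0 CPM in sham and 35.4 ± 1.49 after SNI (log2 fold change 0.14, SE 0.09, adjusted p = 0.463). Has2, which makes the polymer, was 2.16 ± 0.588 CPM in BALB/c sham and 2.76 ± 0.194 after SNI (log2 fold change 0.35, SE 0.23, adjusted p = 0.394), and 1.77 ± 0.492 and 2.33 ± 0.793 CPM in B10.D2 (log2 fold change 0.38, SE 0.24, adjusted p = 0.459).

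**Figure D3:**
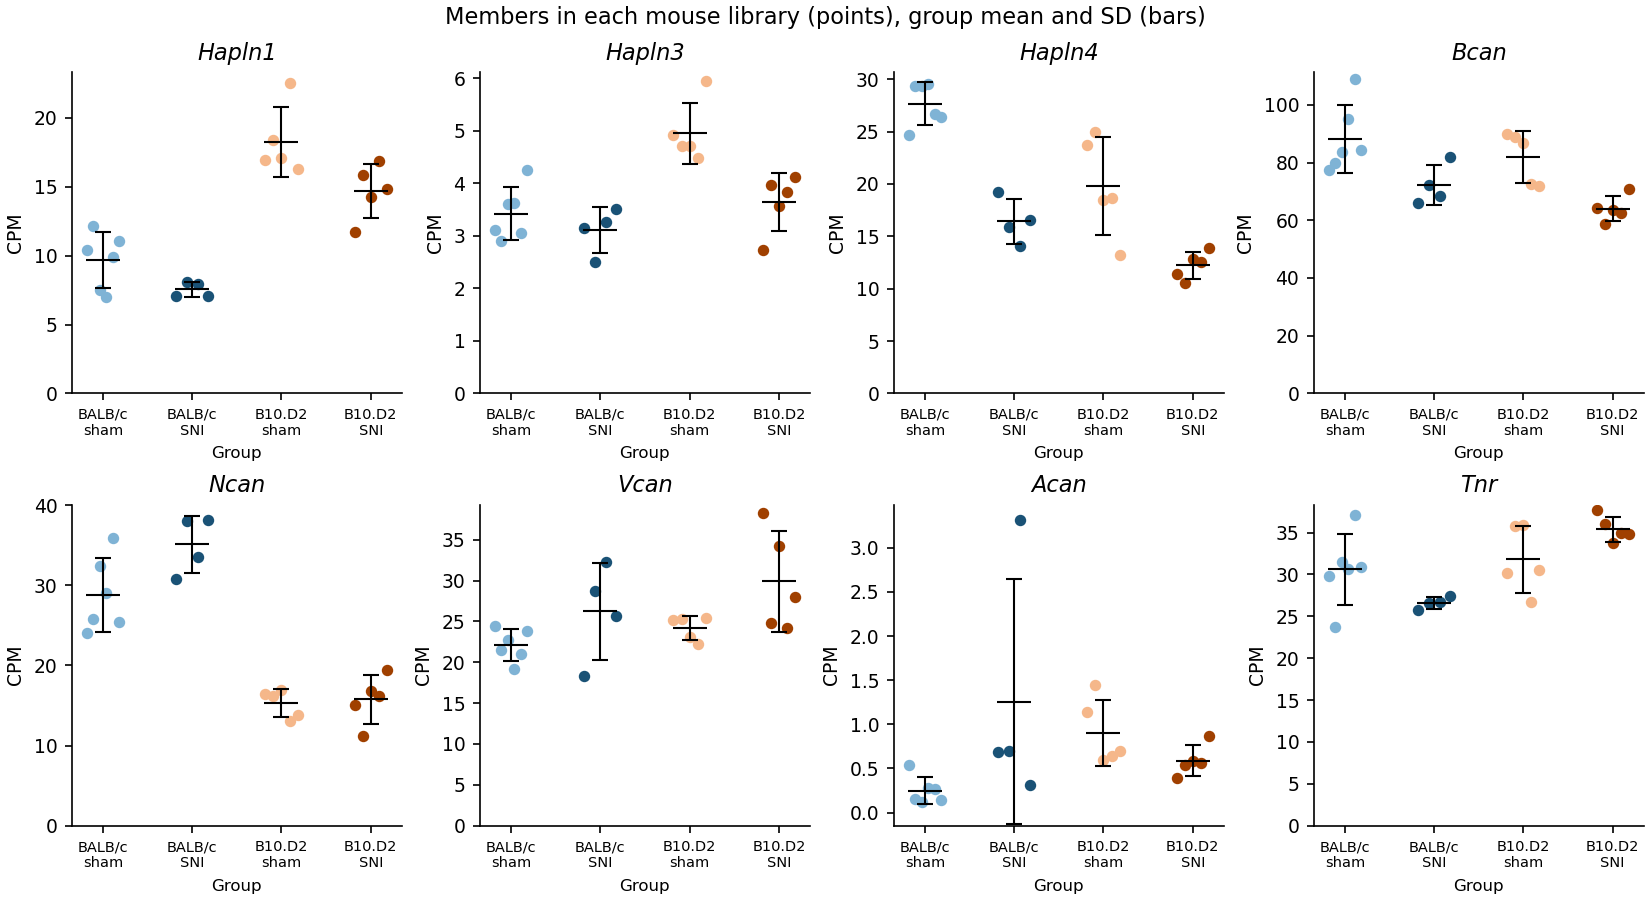
CPM of 8 members in each mouse library (points) by group on the x axis, with the group mean and SD as black bars. The 4 BALB/c SNI libraries of Hapln4 lie between 14.1 and 19.2 CPM, below all BALB/c sham libraries, Ncan separates the strains in sham and after SNI, and the Acan mean of BALB/c SNI rests on a point at 3.32 CPM.

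**Figure D4:**
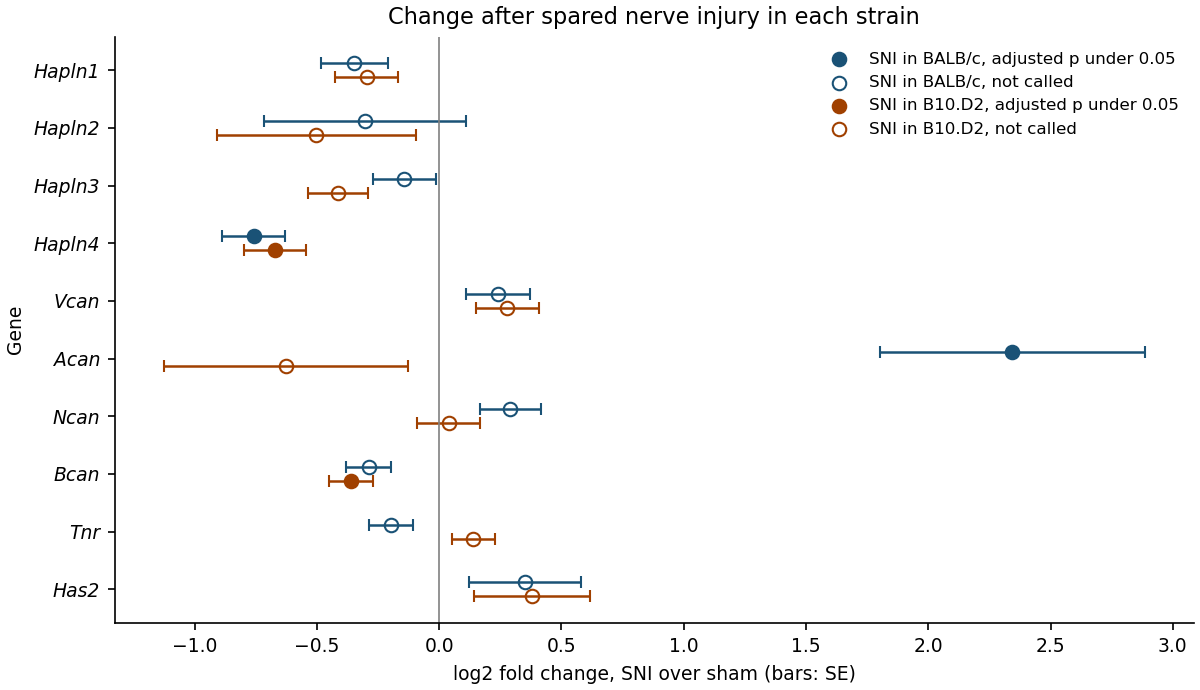
Log2 fold change of SNI over sham (x axis) for each of the 10 genes in BALB/c (blue) and B10.D2 (brown), with SE as bars and filled points for adjusted p under 0.05. Hapln4 is at −0.76 and −0.67, and the only filled point above 0 is Acan in BALB/c at 2.34.

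Averaged over both strains, a contrast chosen after the data had been seen, 4 of 10 members were called, all lower, against 16.5% of all features. Hapln4 fell by 39.1% (log2 fold change −0.72, SE 0.09, adjusted p = 8.86e-06), Bcan by 20.1% (−0.32, SE 0.06, adjusted p = 0.00119), Hapln1 by 20% (−0.32, SE 0.09, adjusted p = 0.0216) and Hapln3 by 17.6% (−0.28, SE 0.09, adjusted p = 0.0347). The first 2 calls held when any 1 library was left out. The Hapln1 call was lost without BALB/c SNI 49 or SNI 70 (adjusted p of 0.0544 and 0.0554), and the Hapln3 call without any of 8 libraries, namely BALB/c sham 55, 56 and 71, B10.D2 sham 67 and 88, BALB/c SNI 49 and 64 and B10.D2 SNI 69 (adjusted p of 0.0515 to 0.0727). Vcan was not called (log2 fold change 0.26, SE 0.09, adjusted p = 0.0594). The remaining 5 members had log2 fold changes of −0.40 (Hapln2, SE 0.29), 0.86 (Acan, SE 0.38), 0.16 (Ncan, SE 0.09), −0.03 (Tnr, SE 0.06) and 0.37 (Has2, SE 0.16). The median over the members was −0.15, against 0.01 over all features.

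The interaction, which tests whether the strains' injury changes differ, called 0 of 10 members by edgeR, against 0.0243% of features. An unadjusted p under 0.05 was reached by 2 members (Acan and Tnr) and by 1073 of all 24685 features. DESeq2 called 0 members for it. The Acan interaction was −2.97 on the log2 scale (SE 0.73, adjusted p = 0.631) and rests in part on BALB/c SNI 65, without which it was −1.69 (SE 0.52). The Tnr interaction was 0.34 (SE 0.13), lower in BALB/c and higher in B10.D2 by the fitted values. For Hapln4 it was 0.09 (SE 0.18) and for Bcan −0.07 (SE 0.13).

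Markers of large-diameter and proprioceptive neurons moved with Hapln4 and Bcan. The summed level of the 6 markers (Nefh, Pvalb, Runx3, Ntrk3, Etv1, Ntrk2) was 2473 to 2824 CPM in BALB/c sham and 1715 to 2081 CPM after SNI, and 1930 to 2528 and 1570 to 1883 CPM in B10.D2. In each strain 3 of 6 were called lower and none higher, against a background, in either direction, of 9.69% for BALB/c and 4.58% for B10.D2. These were Nefh, the heavy neurofilament, at −0.70 (SE 0.08) in BALB/c and −0.50 (SE 0.08) in B10.D2, Etv1 at −0.55 (SE 0.08) and −0.53 (SE 0.08), and Pvalb at −0.95 (SE 0.27) and −1.26 (SE 0.27), all as log2 fold changes. Runx3, Ntrk3 and Ntrk2 were not called in either strain. Per 1000 CPM of the marker sum, Hapln4 was 10.5 ± 0.978 CPM in BALB/c sham against 8.73 ± 0.486 after SNI, and 8.74 ± 1.19 against 7.04 ± 0.312 in B10.D2, with overlap in both strains. Bcan on that scale was 33.6 ± 5.82 against 38.6 ± 4.62 in BALB/c and 36.6 ± 1.64 against 37.0 ± 1.89 in B10.D2. Hapln1 was 3.65 ± 0.678 against 4.05 ± 0.631 in BALB/c and 8.25 ± 1.70 against 8.51 ± 1.16 in B10.D2. No marker of this list was at 0 in mouse, and its part in the results was not tested. The 7 general sensory neuron markers summed to 6104 ± 267 CPM in BALB/c sham (SD, n = 6) and 6049 ± 317 after SNI (SD, n = 4), and to 6490 ± 342 and 6186 ± 456 CPM in B10.D2 (SD, n = 5 each).

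The second question was how the strains differ without injury. In sham ganglia 5 of 10 members were called between strains, 3 higher and 2 lower in B10.D2, against 21.6% of all features, and 4 of 10 did not overlap (background 13.3%). The same number of members was called when any 1 library was left out. Hapln1 was 16.3 to 22.5 CPM in B10.D2 sham and 7.03 to 12.2 CPM in BALB/c sham, without overlap, and was 1.89-fold higher in B10.D2 (log2 fold change 0.92, SE 0.12, adjusted p = 7.86e-06). Neurocan went the other way, at 13.0 to 17.0 CPM in B10.D2 and 24.0 to 35.9 CPM in BALB/c (log2 fold change −0.91, SE 0.12, adjusted p = 9.35e-06). Hapln3 was 1.43-fold higher in B10.D2 (log2 fold change 0.52, SE 0.12, adjusted p = 0.00242) and did not overlap. Hapln4 was lower in B10.D2 (log2 fold change −0.50, SE 0.12, adjusted p = 0.00355), although B10.D2 sham 60, at 25.0 CPM, lay above BALB/c sham 50, at 24.7 CPM. Aggrecan was 0.598 to 1.45 CPM in B10.D2 and 0.121 to 0.536 CPM in BALB/c (log2 fold change 1.87, SE 0.53, adjusted p = 0.0138). The uncalled members had log2 fold changes of 0.02 (Hapln2, SE 0.37), 0.14 (Vcan, SE 0.12), −0.10 (Bcan, SE 0.09), 0.07 (Tnr, SE 0.08) and −0.29 (Has2, SE 0.23). Of the large-diameter neuron markers 1 of 6, Nefh, was also called lower in B10.D2 sham (log2 fold change −0.31, SE 0.07), and its part in the Hapln4 difference was not tested. Other marker lists also held calls, to be read beside the 21.6% of all features called. Higher in B10.D2 were 2 of 7 sensory neuron markers (Isl1 and Uchl1) and 2 of 5 macrophage markers (Adgre1 and Aif1). Lower were 2 of 5 endothelial markers (Kdr and Pecam1) and 1 of 5 satellite glia markers (Kcnj10). Of 5 fibroblast markers 1 was higher and 1 lower (Lum and Col1a1). None of the 6 myelinating Schwann cell markers and none of the 7 injured sensory neuron markers was called. Of the 2 central glia markers tested Aqp4 was called higher (log2 fold change 0.87, SE 0.13), the other was not called, and the median of the 2 was 0.16. Of the 4 cartilage genes tested 1 was called higher (Cnmd) and 1 lower (Comp) in B10.D2. Of the 5 bone and osteoclast genes tested 1 was called higher (Ibsp) and 2 lower (Mmp13 and Acp5). The part of these lists in the members' differences, that of Acan among them, was not tested.

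Both members of 2 neighbouring pairs, Hapln3 with Acan and Hapln4 with Ncan, differed between strains in the same direction, whereas in the other 2 pairs Hapln1 was called and Vcan was not, and neither Hapln2 nor Bcan was called. Over the 20 libraries the levels of the paired genes correlated at r = 0.13 (Hapln1 and Vcan), 0.61 (Hapln2 and Bcan), 0.18 (Hapln3 and Acan) and 0.46 (Hapln4 and Ncan) on log2(CPM + 1). These values are descriptions, since libraries share strain and surgery. After subtracting group means they were −0.12, 0.63, 0.04 and 0.41.

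By sex, averaged over strain and surgery, 0 of 10 members were called by edgeR, against 0.243% of all features. No member had an unadjusted p under 0.05, while 2899 of all 24685 features did. DESeq2 called 0 members. The fitted female-minus-male changes lay between −0.14 (Hapln3, SE 0.09) and 0.18 (Hapln2, SE 0.29) on the log2 scale.

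Assembled LncRNAs within 100000 bases of a member were looked up by position. LncRNA69 and LncRNA70 lie within Tnr on its strand. LncRNA69 was between 6.86 ± 0.467 and 7.05 ± 1.19 CPM as a group mean over the 4 groups, and was not called in any comparison (log2 fold change −0.02, SE 0.10 after SNI in BALB/c). LncRNA70 stood at 0.219 to 0.276 CPM as a group mean, and LncRNA5619, which lies 70723 bases from Hapln4, at 0.614 to 0.899 CPM. Neither was called. LncRNA1594, near Hapln4 and Ncan, and LncRNA6679, 23716 bases from Vcan, were not tested because their counts were low.

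The rat values after SNT are the ones for which the group was taken up. Hapln1 stood at 104, 85.5, 67 and 41.4 CPM in sham libraries 1 to 4 and at 13.2, 0.490, 0.778 and 0.852 CPM in SNT libraries 1 to 4. The groups did not overlap, and SNT libraries 2, 3 and 4 held 9, 14 and 13 counts, while SNT 1 held 209. The fitted log2 fold change was −4.30 (SE 0.89), and −6.91 (SE 0.25) without sham 4 and SNT 1, which lay between the groups on the first principal component, a selection made after seeing the data. Brevican was 84.0, 156, 89.7 and 76.7 CPM in sham and 68.3, 19.0, 28.8 and 42.1 CPM after SNT, again without overlap (log2 fold change −1.36, SE 0.37). Hapln2 was 6.47, 8.05, 6.34 and 5.21 CPM in sham and 4.74, 3.70, 3.50 and 2.95 CPM after SNT (log2 fold change −0.81, SE 0.20), so unlike in mouse it was well above the floor.

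Hapln3 was 2.40, 3.84, 3.49 and 1.17 CPM in rat sham and 2.02, 1.80, 1.28 and 0.721 CPM after SNT (log2 fold change −0.90, SE 0.40), with overlap from sham 4. Versican was 69.9, 25.1, 52.6 and 72.9 CPM in sham and 61.6, 113, 120 and 68.4 CPM after SNT (log2 fold change 0.72, SE 0.33), and Has2 was 6.94 ± 2.50 CPM in sham and 9.33 ± 2.72 after SNT (SD, n = 4 each; log2 fold change 0.44, SE 0.31). Aggrecan was 0.746, 1.22, 0.784 and 1.37 CPM in sham and 0.569, 0.762, 21.3 and 1.05 CPM after SNT. Its log2 fold change was 2.51 (SE 1.12) with SNT 3 and −0.37 (SE 0.35) without it. SNT 3 also held 200 CPM of Ctsk, 81.3 CPM of Acp5, 164 CPM of Mmp9 and 37.7 CPM of Mmp13, genes of osteoclasts and bone, against at most 62.4, 22.2, 4.19 and 2.69 CPM in the other 7 rat libraries. The osteoblast gene Bglap was lower there than in any of them, at 0.334 CPM against 0.651 to 2.88 CPM, and Ibsp was listed at 0 throughout. The cartilage collagen Col2a1 stood at 87.9 CPM there, within the 21.7 to 129 CPM of the others, and Col9a1 and Matn3 also lay within range. Matn1, near the floor, was at 0.167 CPM against at most 0.109 CPM in the others. Cnmd, Comp and Sox9 were listed at 0 in every rat library. The part of cartilage or bone in the Acan value was not tested.

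**Figure D5:**
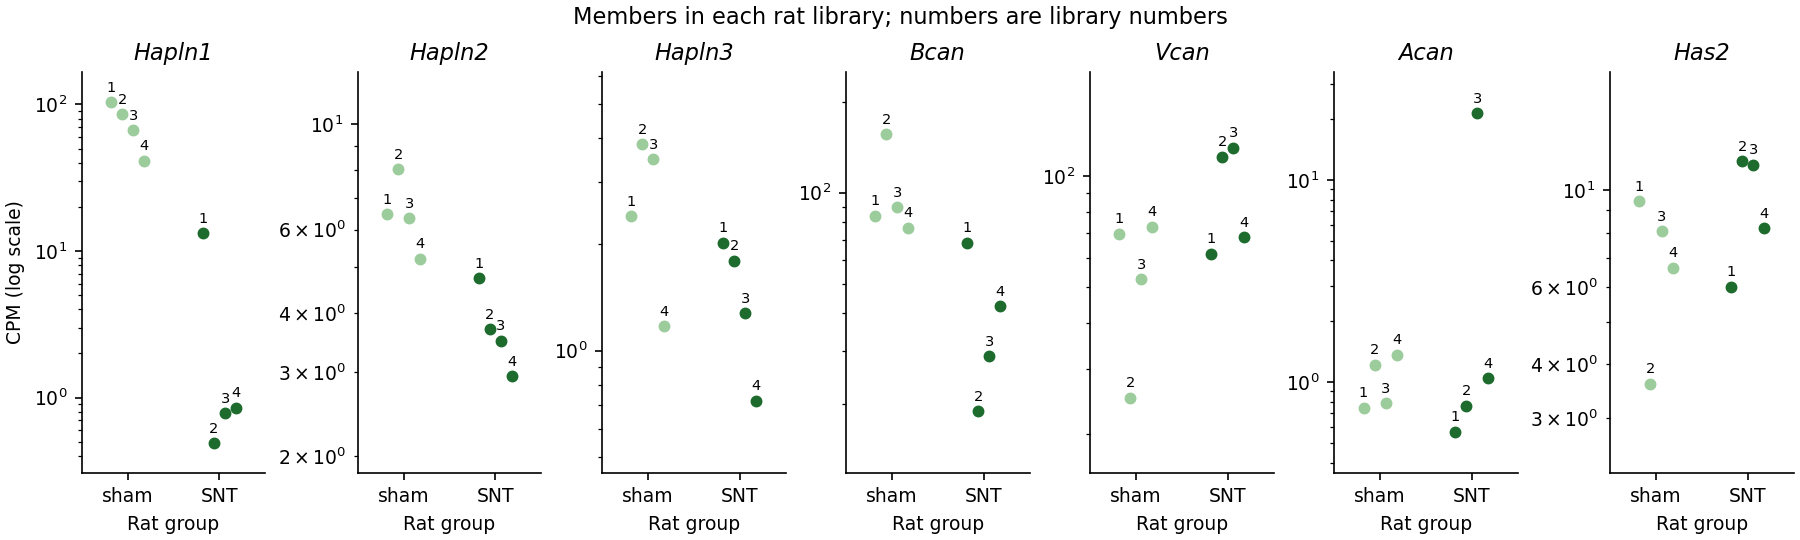
CPM (log axes, 1 panel per gene) of the 7 members with counts in each rat library, sham on the left and SNT on the right, with library numbers beside the points. Hapln1 is at 0.490 to 0.852 CPM in SNT 2, 3 and 4 but at 13.2 CPM in SNT 1, and Acan is at 21.3 CPM in SNT 3 alone.

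At the same threshold 3 of the 7 members tested in rat were called, all lower (Hapln1, Bcan, Hapln2), where 27.4% of 13690 features were, and 3 of 7 did not overlap, where 26.5% of features did not. Nothing is read from these counts, since the contrast chose the group. The large-diameter neuron markers measured in rat were 525 to 875 CPM in sum in sham and 244 to 422 CPM after SNT, and Pvalb was 163 to 282 CPM and 3.48 to 85.2 CPM. Nefh and Ntrk2 were listed at 0. General sensory neuron markers were lower too, with 3 of 4 tested past the threshold (Avil −1.42, SE 0.40, Isl1 −1.09, SE 0.28 and Elavl4 −0.71, SE 0.19), and both fibroblast markers tested were higher (Col3a1 1.02, SE 0.25 and Lum 0.79, SE 0.21), as log2 fold changes. The 1 satellite glia marker tested was lower (Slc1a3 −0.45, SE 0.14). Of 3 myelinating Schwann cell markers 1 was higher (Mag 1.55, SE 0.35), as was the 1 endothelial marker tested (Tek 0.63, SE 0.14). The 1 macrophage marker tested was not past the threshold. Per 1000 CPM of the large-diameter marker sum, Hapln1 was 98.7 ± 21.9 CPM in sham and 9.89 ± 14.3 after SNT (SD, n = 4 each), with ranges of 78.8 to 129 and 1.83 to 31.3. Bcan on that scale was 137 ± 32.5 and 129 ± 47.4. The part of these markers in the members' values was not tested. In mouse the injury, level and interval differ from those in rat. Mouse libraries were also ribodepleted and of both sexes, and rat libraries polyadenylated and male. The species were not compared by a test.

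The wider hyaluronan and chondroitin sulphate pathway was described by 65 genes in 9 lists, of which 62 were tested in mouse. After SNI, 6 of 62 were called higher and 0 lower in BALB/c and 2 higher and 1 lower in B10.D2 (9.68% and 4.84% called, near the backgrounds of 9.69% and 4.58%). Tenascin-C (Tnc), a matrix glycoprotein of injury and development, was higher in both strains, from 18.7 ± 6.45 to 78.8 ± 17.0 CPM in BALB/c (log2 fold change 2.07, SE 0.26, adjusted p = 1.76e-05) and from 14 ± 2.72 to 76.7 ± 28.4 CPM in B10.D2 (2.48, SE 0.27, adjusted p = 1.24e-05). Its relative tenascin-R was not called in either strain, as given above. Among genes that break down hyaluronan, Hyal1 was called higher in both strains (log2 fold changes 0.34, SE 0.09 and 0.38, SE 0.10), Cemip was called in BALB/c (0.68, SE 0.13), and Hyal3 was called lower in B10.D2 (−0.42, SE 0.12). Tnfaip6, which binds hyaluronan and crosslinks it through inter-alpha-inhibitor heavy chains, rose in BALB/c from 1.27 ± 0.181 to 2.53 ± 0.495 CPM (log2 fold change 1.0, SE 0.17, adjusted p = 0.000471). Itih5 (0.26, SE 0.08) and the sulphotransferase Chst3 (0.42, SE 0.13) were the remaining calls in BALB/c. Markers of non-neuronal cells were also called higher after SNI, with 1 of 5 for fibroblasts (Lum, log2 fold changes 0.45, SE 0.12 and 0.52, SE 0.12) and 1 of 5 for satellite glia (Cdh19, 0.54, SE 0.08 and 0.30, SE 0.08) in both strains, and 2 of 5 for macrophages (Cd68, 0.62, SE 0.18 and Csf1r, 0.47, SE 0.14) and 1 of 5 for endothelial cells in BALB/c, against 0 of 5 for both in B10.D2. Of the 2 central glia markers tested, Aqp4 was called lower in BALB/c (log2 fold change −0.44, SE 0.14), and neither was called in B10.D2. Of the 6 myelinating Schwann cell markers none was called in either strain. The part of these markers in the pathway genes' changes was not tested.

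Averaged over strains, 9 of 62 pathway genes were called higher and 4 lower, or 20.97% against 16.5% of all features. Besides Tnc, Tnfaip6, Cemip, Hyal1 and Itih5, the higher ones were Ugdh, which makes the sugar nucleotide for hyaluronan (log2 fold change 0.13, SE 0.04), the scavenger receptor Stab1 (0.33, SE 0.10), Cspg4 (0.25, SE 0.08) and the lectican-cleaving Adamts20 (0.18, SE 0.06). Lower were Hyal3 (−0.36, SE 0.08), the chain polymerase Chsy3 (−0.44, SE 0.13), B3gat3 (−0.16, SE 0.04) and Chst11 (−0.12, SE 0.04). Interaction and sex called 0 of 62 by edgeR, with 3 and 8 genes at an unadjusted p under 0.05, as were 1073 and 2899 of all 24685 features. DESeq2 called 0 and 2 of the pathway genes, against 10 of 26420 and 246 of 20753 features. In sham ganglia 8 were called higher and 11 lower in B10.D2 (30.6% against 21.6% of all features). The hyaluronan receptor Cd44 was 147 ± 16.7 CPM in BALB/c and 233 ± 15.3 in B10.D2 (log2 fold change 0.66, SE 0.07, adjusted p = 2.21e-07). The synthase Has3 was lower in B10.D2 (−0.55, SE 0.11), as were Hyal1 (−0.42, SE 0.09), Hyal2 (−0.23, SE 0.07), Hmmr (−1.28, SE 0.36), Itih3 (−0.79, SE 0.15), Itih5 (−0.57, SE 0.07), Adamts20 (−0.46, SE 0.08), Tnn (−1.95, SE 0.65), Fbln2 (−0.21, SE 0.07), Chst11 (−0.33, SE 0.05) and Chst15 (−0.23, SE 0.06). Itih2 (0.79, SE 0.25), Fbln1 (0.75, SE 0.20), Dcn (0.42, SE 0.11), Cspg5 (0.36, SE 0.12), B3galt6 (0.50, SE 0.06) and Dse (0.32, SE 0.08) were higher, and Ptprz1 was the remaining call.

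In rat 38 pathway genes were tested, and 8 stood higher and 4 lower at the same threshold (31.6%, near the background of 27.4%), again as a description. Has1, another synthase, was 4.66 ± 3.09 CPM in sham and 14.5 ± 3.45 after SNT (SD, n = 4 each; log2 fold change 1.63, SE 0.38). Cd44 (0.75, SE 0.20), Hyal2 (0.42, SE 0.12), Cspg4 (0.68, SE 0.15), Adamts20 (0.99, SE 0.22), Chst14 (0.77, SE 0.21), Xylt1 (0.71, SE 0.17) and Chsy1 (0.49, SE 0.16) were higher. Fbln2, a lectican-binding fibulin, was lower (−1.27, SE 0.32), with Chst15 (−1.11, SE 0.23), Ust (−0.87, SE 0.22) and Rtn4rl2 (−0.99, SE 0.20).

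For each member of at least 1 CPM, the genes of most similar level (up to 3) over the 20 mouse libraries were named by Pearson's r of log2(CPM + 1) among 14412 genes. The values describe libraries that share strain and surgery. They were Zdhhc17 (r = 0.96), Csnk1g3 (0.96) and Fgf12 (0.95) for Hapln1, and Gprc5c (0.96), Smad9 (0.96) and Asic1 (0.96), an acid-sensing channel, for Hapln4. Hapln3 was most like Polr3g (0.92), Cpox (0.85) and Gm14025 (0.85). For the lecticans they were Sema3f (0.94), Ank1 (0.93) and Abcb9 (0.91) for Bcan, Dysf (0.97), Tfe3 (0.97) and Man2a2 (0.96) for Ncan, and the chemokine Ccl7 (0.91), Smchd1 (0.88) and Mdfic (0.85) for Vcan. Tnr was most like Runx1 (0.82) and Tpcn2 (0.78), and Has2 most like Cspg4 (0.85), St6gal1 (0.84) and Slc2a1 (0.82). Over the 8 rat libraries and 8623 genes, Hapln1 was most like Cst12, Bola3 and Iapp, at r = 0.999, 0.997 and 0.997.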

How the data were processed

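Mouse and rat dorsal root ganglion libraries were sequenced after nerve injury or sham surgery. The authors aligned reads to mm10 and rn6 with STAR and counted them per gene with HTSeq (intersection-nonempty) on Ensembl annotation and on LncRNAs assembled by them in each species. The deposited values used here are raw counts. Mouse libraries were ribodepleted and rat libraries polyadenylated, and both marked strand, but the strand setting of the counting is not given in the sources used here. The authors' result tables hold their fold changes and p-values, of which none were used. Of 30 labelled samples, 2 have no count column used here.

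Counts were tested with edgeR 4.0.16 (R 4.3.3) by the quasi-likelihood test with TMM scaling, filterByExpr and Benjamini-Hochberg adjustment over all tested features, with the formulas sex plus strain by condition for mouse (20 libraries) and condition for rat (8). CPM are counts scaled to library totals after TMM. Each mouse library is 1 animal and each rat library a pool of 3. Scripts were tested on simulated data. DESeq2 1.42.0, RLE scaling, no low-count filter, no sex term, each strain alone, leaving out each library, and a block by rat library number were alternatives. Every member was named in every comparison, as were the called pathway genes (at most 2 per direction, list and comparison by rule, with the few others named after their values were seen), the 3 most similar genes per member, and nearby LncRNAs, except for items that are not reported here. Members and lists were chosen with earlier results of these data known. The average over strains, the cartilage and bone lists, and the fit without rat sham 4 and SNT 1 were added after seeing the data.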

Additional observations from a re-analysis of the deposited data

Results flagged for a closer look

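Of 54 combinations of a member and a group of 4 to 6 libraries, 4 held a library that stood apart from the rest of its group by Dixon's test, and chance alone flags about 1 in 20 groups. Rat SNT 1 held 13.2 CPM of Hapln1, against 0.490 to 0.852 CPM in the other 3 SNT libraries, whose mean was 0.707 ± 0.191 CPM. BALB/c SNI 65 held 3.32 CPM of Acan, and the other 3 libraries of that group averaged 0.565 ± 0.219 CPM. Rat SNT 3 held 21.3 CPM of Acan, and the other 3 SNT libraries averaged 0.793 ± 0.241 CPM. Rat sham 2 held 156.2 CPM of Bcan, and the other 3 sham libraries averaged 83.4 ± 6.53 CPM.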

How the results depend on the processing

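Hapln4 was called lower in both strains under every alternative run. Over the single-library omissions the number of members called ranged from 1 to 4 after SNI in BALB/c (1 without SNI 65, 4 without sham 51), 1 to 3 in B10.D2, 3 to 5 averaged over strains, 0 to 0 for the interaction, 5 to 5 between strains, 0 to 0 for sex and 1 to 4 in rat, where 1 remained without sham 2 or 3 or SNT 2, 3 or 4. Pathway genes called ranged from 3 to 7 in BALB/c (3 without sham 57, SNI 65 or SNI 70), 1 to 4 in B10.D2 (1 without sham 58 or SNI 90), 8 to 14 averaged (8 without BALB/c SNI 70), 0 to 0 for the interaction, 15 to 20 between strains, 0 to 0 for sex and 5 to 19 in rat. Of all features tested, 1643 to 2649 were called over these omissions in BALB/c, 665 to 1214 in B10.D2 and 3457 to 4290 averaged. The interaction called 3 to 6 features, strain 4515 to 5473, sex 35 to 159 and rat 1483 to 5041. Without rat sham 4 and SNT 1 together, 5 members and 20 pathway genes were called. In that fit 6100 of 13892 features were called, against 3753 of 13690 in the main fit. With each strain fitted alone 1 member was called in BALB/c, against 1747 of 23935 features. DESeq2 called 5 pathway genes in B10.D2, against 1461 of 21565 features. For sex 2 pathway genes were called both without the filter and by DESeq2, against 222 of 41893 and 246 of 20753 features. Brevican in BALB/c was called with RLE scaling, with no filter, by DESeq2 and without the sex term (adjusted p of 0.0460, 0.0128, 0.0219 and 0.0475), and Hapln3 in B10.D2 by DESeq2 and without the sex term (0.0225 and 0.0458). Signs changed without the sex term for Hapln2 between strains (−0.0052 on the log2 scale) and under DESeq2 for Acan by sex (−0.019). Over single-library omissions the log2 changes that crossed 0 ranged as follows. By sex Acan ranged from −0.39 to 0.22 and Bcan from −0.021 to 0.051. For the interaction Hapln1 ranged from −0.021 to 0.17, Hapln2 from −0.66 to 0.0020, Hapln4 from −0.029 to 0.17, Has2 from −0.13 to 0.18 and Vcan from −0.084 to 0.16. Between strains Hapln2 ranged from −0.17 to 0.16 and Tnr from −0.00083 to 0.15. After SNI Ncan in B10.D2 ranged from −0.075 to 0.14 and Tnr averaged over strains from −0.074 to 0.0023. In rat Acan ranged from −0.37, without SNT 3, to 2.90, and was 3.05 without sham 4 and SNT 1 together. Each rat sham library shares a number in its title with 1 SNT library, and the labels do not say what it marks. The deviations of libraries of a shared number correlated at r of 0.05, −0.293, −0.114 and −0.0936. With 4 libraries per group, of which sham 4 and SNT 1 stood apart, these values cannot show whether the libraries are pairs. The main fit did not treat them as pairs. With the number as a replicate block Bcan was no longer past the threshold, and 2 members, 10 pathway genes and 2558 features were, against 3, 12 and 3753 without it. All rat counts of calls in this section are descriptions, and nothing is read from them, since the rat contrast chose the group. The causes of the changes between settings were not tested. Depth limits Hapln2 and Acan in mouse, with 3 to 15 and 5 to 128 counts per library.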
